A study of Mus musculus with 31 samples.

Results

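Interferon-stimulated genes are the transcripts that cells turn on when interferon reaches its receptor, and 34 of them were followed here in mouse kidney. They were taken by symbol from a list of classical interferon-stimulated genes that needed at least 10 counts in at least 5 kidneys, and all 34 were found among the 23509 genes counted and were kept among the 15185 genes that passed the filter on low counts. RNA-seq had been run on whole kidneys of 31 mice in 3 groups. The WT group held 5 untreated CD1 mice, described as male and matched for age. The PBS group held 12 Pcy/CD1 mice injected subcutaneously with PBS, and the RGLS4326 group held 14 Pcy/CD1 mice injected subcutaneously with RGLS4326 at 25 mg per kg monthly. Both Pcy groups were injected from 5 weeks of age for 25 weeks, and the kidneys of all 3 groups were taken at 30 weeks of age. All Pcy/CD1 mice carry pcy, which gives a slowly progressing recessive cystic kidney disease, on the outbred CD1 background, so the PBS controls have the disease as well. RGLS4326 is a short, chemically modified oligonucleotide that binds the seed of the miR-17 family of microRNAs. The WT mice received no injection, so disease and injection cannot be told apart in comparisons with WT. The labels give a weekly schedule for PBS where the protocol text reads as monthly. With weekly PBS, drug and injection frequency differ together between RGLS4326 and PBS mice and cannot be told apart.

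Type I and type III interferons signal through JAK kinases to a complex that includes STAT2 and IRF9 and binds a GAAA-rich element in the promoters of its target genes, whereas interferon gamma acts mainly through a palindromic TTC-GAA element. The targets include regulators that amplify the response, sensors of viral RNA and DNA, effectors that block translation, replication or budding of viruses, and large GTPases that attack the vacuoles of intracellular pathogens. Both tubule cells and infiltrating leukocytes can express them. A whole kidney mixes these cells, so fewer cells of a type and less RNA per cell cannot be told apart in any value below.

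The promoter letters of members that moved together, and of those that did not, are shown for comparison. RefSeq promoters, 250 bases before to 50 after the start of the gene on GRCm38.p6, were matched for 24 of the 34 members. The core GAAANNGAAA, searched on both strands, was found in 15 of these 24 (62.5%), against 3.99% of the 27025 genes with a promoter entry. The motif TTCNNNGAA, which is its own reverse complement, was found in 8 of 24 (33.3%), against 9.55% of all genes. Among the matches of the first motif printed here, only the Bst2 run overlapped a match of the second. Windows of 30 bases follow, 5′ to 3′ on the strand of the gene, with matches of the first motif in capitals; a TTTC start marks a match on the other strand. The first 6 windows belong to 5 genes that were higher in PBS than in WT kidneys, and the last 4 to genes that were not called.
Isg15, chr4:156200871-156200900, minus strand: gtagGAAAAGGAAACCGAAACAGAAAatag
Ifit3, chr19:34583363-34583392, plus strand: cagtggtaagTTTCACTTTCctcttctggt
Ifit3, chr19:34583397-34583426, plus strand: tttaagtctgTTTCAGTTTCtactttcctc
Oas1a, chr5:120907523-120907552, minus strand: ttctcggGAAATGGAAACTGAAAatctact
Bst2, chr8:71537580-71537609, minus strand: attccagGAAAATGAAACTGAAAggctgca
Gbp2, chr3:142620594-142620623, plus strand: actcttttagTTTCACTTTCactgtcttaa
Rsad2, chr12:26456553-26456582, minus strand: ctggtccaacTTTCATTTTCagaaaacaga
Ifih1, chr2:62646206-62646235, minus strand: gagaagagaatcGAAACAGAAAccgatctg
Gbp7, chr3:142530273-142530302, plus strand: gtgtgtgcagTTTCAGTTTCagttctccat
Irgm1, chr11:48871428-48871457, minus strand: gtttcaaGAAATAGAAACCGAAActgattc
The motif therefore stood in the window of called and uncalled members alike: the median log2 fold change between PBS and WT was 1.42 for the 15 members with it, 11 of them called, and 1.18 for the 9 without it, 8 of them called. Among all genes tested 24.6% were called higher. A match is a description of letters and not of a bound site.

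The counts on genes summed to 14892524 to 27459962 per mouse. Levels are given as CPM, the counts on a gene scaled to a common total with TMM factors, and a gene was called where its adjusted p was under 0.05 and its absolute log2 fold change over 0.5 (quasi-likelihood test of edgeR, adjusted by Benjamini-Hochberg over all genes tested). Kidney tubule markers such as Umod and Slc34a1 were abundant in every group. A single treated kidney stood apart: in the library labelled RGLS4326 mouse 9, 31 of the 34 members lay inside or below the WT range, against 1 to 6 members in the other RGLS4326 mice and 1 to 5 in PBS mice. In that kidney Lcn2, a tubule injury marker, read 2.76 CPM, against 0.944 to 11.2 CPM in WT and 205 to 1205 CPM in PBS mice, and the main results with this mouse in the comparison are therefore also given without it. The counts cannot tell whether the label of this kidney is correct. Library numbers fall into 3 index series of 4, 4 and 4 PBS, 4, 5 and 5 RGLS4326 and 2, 2 and 1 WT mice, and counts of called members within each series stand beside the pooled ones. The last series has a single WT mouse, so comparisons with WT there have no spread between WT mice of their own and assume that it varied like the Pcy mice. The WT mice of the second series, WT mice 3 and 4, were the most alike of all WT pairs, with a chi-square per gene of 2.69 against 16 for the next pair, so the WT spread in that series was small.

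**Figure D1:**
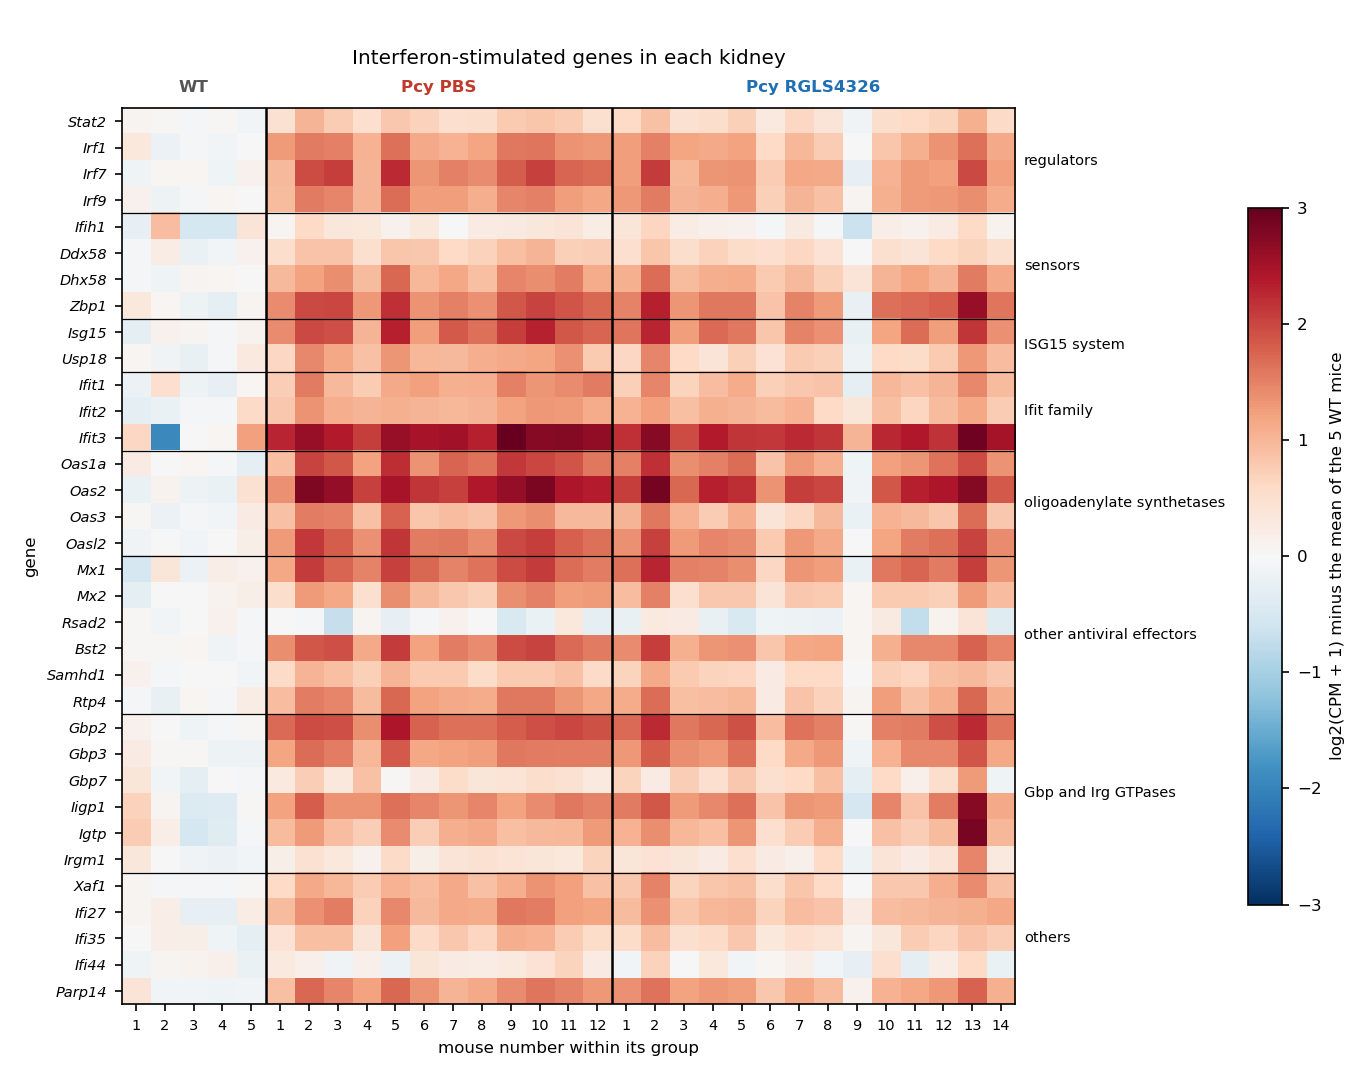
Heat map of the 34 genes (rows, ordered by role) in the 31 kidneys (columns, grouped as WT, Pcy PBS and Pcy RGLS4326), coloured by log2(CPM + 1) minus the mean of the 5 WT mice. Most rows were higher in Pcy kidneys than in WT, RGLS4326 mouse 9 resembled the WT columns, and RGLS4326 mouse 13 had the highest Irgm1, Igtp and Iigp1.

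The first comparison asked how the interferon-stimulated genes of the PBS-treated cystic kidney differ from those of a healthy kidney. Of the 34 members, 29 were called higher in PBS than in WT mice and none lower, while 24.6% of all genes tested were called higher. The median log2 fold change of the members was 1.42, against 0.01 for all genes tested. For 28 of the 34 members, each of the 12 PBS mice was above each of the 5 WT mice, which held for 20.3% of all genes. The 5 members not called were Ifih1, Rsad2, Ifi44, Gbp7 and Irgm1. Within the index series 28, 31 and 27 members were called higher, against 21.4%, 19.5% and 17.3% of all genes, and the medians of the members were 1.34, 1.55 and 1.53. The count of 31 rests on the 2 closely alike WT mice, and that of 27 on 1 WT mouse.

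All 4 regulators rose. Irf9 (chromosome 14, 55603571 to 55610030) encodes the DNA-binding subunit of the complex downstream of type I interferon and read 15.9, 12.9, 14.2, 15.3 and 14.6 CPM in WT mice. In PBS mice it ranged from 28.9 to 48.7 CPM with a median of 36.2, and in RGLS4326 mice from 15.5 to 45.0 CPM with a median of 32.5. No PBS mouse overlapped the WT mice, and the lowest RGLS4326 mouse lay within the WT range. The log2 fold change of Irf9 between PBS and WT was 1.38 (SE 0.16, adjusted p = 2.35e-08). Irf1, an activator of genes of the interferon gamma response, read 24.4, 16.9, 18.7, 18.4 and 19.2 CPM in WT mice, 41.1 to 62.6 CPM (median 49.8) in PBS mice and 19.4 to 63.6 CPM (median 43.6) in RGLS4326 mice. Its groups likewise did not overlap between PBS and WT, with a log2 fold change of 1.40 (SE 0.18, adjusted p = 7.07e-08). Irf7, the regulator that amplifies type I interferon production, rose by a log2 fold change of 1.80, the highest of the 4, and Stat2, the partner of IRF9, by 0.71, the lowest.

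Of the 4 nucleic acid sensors, 3 rose. Ddx58, which encodes the RNA sensor RIG-I and had both the smallest p and the highest CPM among the sensors, read 25.3, 30.7, 22.7, 24.8 and 28.8 CPM in WT mice, 37.4 to 54.6 CPM (median 45.7) in PBS mice and 26.5 to 47.3 CPM (median 38.1) in RGLS4326 mice. Every PBS mouse was above every WT mouse, by a log2 fold change of 0.78 (SE 0.09, adjusted p = 4.08e-08). Dhx58, which encodes the related regulator LGP2, rose by 1.64, and Zbp1, a sensor of Z-form nucleic acids that can trigger necroptosis, by 2.28. Ifih1, which encodes the sensor of long double-stranded RNA MDA5, had a log2 fold change of 0.18 (adjusted p = 0.400). Its WT values of 6.61, 16.2, 5.32, 5.27 and 10.8 CPM spanned the PBS range of 8.20 to 12.6 CPM, and WT mouse 2 was the highest of all mice. Without WT mouse 2, Ifih1 was called higher, at 0.52 on the log2 scale. Within the index series it had −0.12, 0.83 and −0.06, and it was called in the second alone (adjusted p = 0.0207).

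Both members of the ISG15 system rose. Isg15, a ubiquitin-like modifier conjugated to proteins after interferon, read 1.59, 2.44, 2.31, 2.06 and 2.35 CPM in WT mice, 5.38 to 14.8 CPM (median 10.3) in PBS mice and 1.69 to 14.4 CPM (median 7.43) in RGLS4326 mice. The PBS and WT mice did not overlap, and the log2 fold change was 2.24 (SE 0.31, adjusted p = 3.26e-07). Its promoter window above holds 3 overlapping matches of the GAAANNGAAA core. Usp18, which encodes the protease that removes ISG15 and dampens receptor signalling, rose by 1.38.

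All 3 Ifit genes rose. Their proteins bind viral RNA and block its translation, and the genes lie side by side on chromosome 19 of GRCm38, Ifit2 from 34550694 to 34576419, Ifit3 from 34583531 to 34588731 and Ifit1 from 34640871 to 34650009. Ifit2 had the smallest p and read 7.84, 8.32, 9.41, 9.33 and 14.8 CPM in WT mice, 17.8 to 26.2 CPM (median 21.5) in PBS mice and 12.8 to 24.2 CPM (median 19.6) in RGLS4326 mice. The PBS mice were all above the WT mice, by a log2 fold change of 1.15 (SE 0.13, adjusted p = 2.06e-08). Ifit3, which had the highest CPM of the family, read 8.67, 0.653, 5.32, 5.51 and 13.9 CPM in WT mice, 25.5 to 50.7 CPM (median 36.4) in PBS mice and 11.8 to 46.2 CPM (median 28.2) in RGLS4326 mice. The highest WT mouse was 21.2 times the lowest, against a median of 1.45 times over the 34 members, and WT mouse 2 again was an end of the range, here the low end. PBS mice were nonetheless all above WT, with a log2 fold change of 2.41 (SE 0.31, adjusted p = 1.04e-07), and Ifit1 rose by 1.42. Ifit3 has a near-identical copy, and reads that map equally to both are not counted, so its level is uncertain.

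The oligoadenylate synthetases had the highest median of the 8 roles, and all 4 rose. Enzymes of this family make the small messenger that activates RNase L. Oas2, Oas3 and Oas1a are neighbours on chromosome 5, between 120730333 and 120907521, and Oasl2 lies apart from 114896936 to 114912234. Oasl2 read 5.78, 6.36, 5.92, 6.42 and 7.29 CPM in WT mice, 16.7 to 31.4 CPM (median 23.2) in PBS mice and 6.44 to 29.5 CPM (median 18.2) in RGLS4326 mice. The WT mice were tightly grouped and the PBS mice did not reach them, with a log2 fold change of 1.91 (SE 0.23, adjusted p = 4.15e-08). Oas2 and Oas3 had the highest fold changes of all 34 members, 2.82 and 2.80 on the log2 scale, and Oas1a had 2.30. Oas3 rested on 2 to 8 counts in each WT mouse, so the size of its change is the least precise (SE 0.47). It was the 1 member under 10 counts in every WT mouse, so it met the count rule through the Pcy mice, where it is high. Without it the median of the other 3 synthetases was 2.30, 28 of 33 members were called and their median was 1.42. Mx1 had as few as 8 counts in a WT mouse, so the WT mice alone would not have met the rule for it either. The Oas1a family also holds close paralogs whose shared reads are not counted.

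Of the 6 other antiviral effectors, 5 rose. Bst2, which encodes tetherin, a membrane protein that holds budding virus particles at the cell surface, read 10.4, 10.3, 10.5, 9.26 and 9.76 CPM in WT mice, 23.2 to 46.0 CPM (median 33.2) in PBS mice and 10.6 to 45.3 CPM (median 27.0) in RGLS4326 mice. No Pcy mouse of either group fell into the WT range, and the log2 fold change between PBS and WT was 1.78 (SE 0.22, adjusted p = 4.09e-08). Samhd1, a hydrolase of deoxynucleotides, read 29.5, 26.0, 26.6, 26.9 and 25.4 CPM in WT mice, 39.5 to 55.8 CPM (median 46.9) in PBS mice and 27.0 to 60.3 CPM (median 43.1) in RGLS4326 mice. Its groups did not overlap between PBS and WT either, although its log2 fold change of 0.81 (SE 0.12, adjusted p = 6.70e-07) was the lowest of the 5. The dynamin-like GTPases Mx1 and Mx2 rose by 2.41 and 1.44, and Rtp4, of the receptor transporter protein family, by 1.65. Rsad2, which encodes viperin, a radical SAM enzyme that blocks replication of many viruses, did not move with them. It read 17.9, 16.6, 17.3, 19.2 and 16.8 CPM in WT mice and 10.6 to 22.0 CPM (median 16.9) in PBS mice, which enclosed all WT values, and its log2 fold change was −0.11 (SE 0.15, adjusted p = 0.512).

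Of the 6 GTPases of the Gbp and Irg families, which respond mainly to interferon gamma, 4 were called higher, and the adjusted p was under 0.05 for all 6 with all mice in the fit. Gbp2, a guanylate-binding protein, read 8.79, 8.08, 7.22, 7.81 and 8.25 CPM in WT mice, 22.8 to 47.7 CPM (median 31.9) in PBS mice and 8.28 to 41.6 CPM (median 26.6) in RGLS4326 mice. Every PBS mouse was above every WT mouse, by a log2 fold change of 1.99 (SE 0.23, adjusted p = 2.37e-08). Gbp7, Gbp3 and Gbp2 follow each other on chromosome 3 from 142530342 to 142638008. Irgm1, a regulator of the other immunity-related GTPases, had the highest level of the 6 per kilobase of exon in WT mice (8.62 CPM per kb) and read 62.8, 50.01, 46.1, 44.2 and 47.2 CPM there. It ranged from 54.2 to 79.5 CPM (median 64.8) in PBS mice and from 44.9 to 139 CPM (median 63.8) in RGLS4326 mice. WT mouse 1 lay inside the PBS range, and the log2 fold change of 0.37 (SE 0.15, adjusted p = 0.0288) missed the fold threshold. Gbp7 missed it too, at 0.46 (adjusted p = 0.0249), whereas Gbp3, Iigp1 and Igtp rose by 1.56, 1.54 and 1.02. WT mouse 1 had the highest WT value of all 6 GTPases. Without WT mouse 1, Gbp7 was called at 0.58, whereas its adjusted p was above 0.05 without WT mouse 2 or WT mouse 3 and within each index series, of which the last has 1 WT mouse. Irgm1 had an adjusted p above 0.05 without WT mouse 3, 4 or 5 and within the first and the last index series, and was called within the second at 0.56. Igtp was not called within the first index series. Within the last, where WT is 1 mouse, the log2 fold changes were 1.17 for Igtp (adjusted p = 0.251) and 1.56 for Iigp1 (adjusted p = 0.0804). Exons of Igtp and Irgm2 share 162 bases on the same strand (8.01% of Igtp), where reads are ambiguous and not counted.

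Among the 5 remaining members, 4 rose. Ifi27, which encodes a small mitochondrial and nuclear membrane protein, had both the smallest p and the highest CPM and read 25.9, 28.2, 20.3, 20.3 and 28.9 CPM in WT mice, 39.8 to 75.1 CPM (median 57.7) in PBS mice and 29.4 to 65.0 CPM (median 48.4) in RGLS4326 mice. Neither Pcy group overlapped the WT mice, and the log2 fold change between PBS and WT was 1.27 (SE 0.14, adjusted p = 1.79e-08), the smallest adjusted p of the 34 members. Parp14, an ADP-ribosyltransferase, rose by 1.42, Xaf1, a pro-apoptotic partner of XIAP, by 1.18, and Ifi35 by 0.83. Ifi44 had a log2 fold change of 0.27 (adjusted p = 0.117), with WT mice at 6.20 to 8.24 CPM and PBS mice at 6.36 to 12.1 CPM.

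Per kilobase of exon, which allows levels to be compared between genes, Ifi27 (40.5 CPM per kb) and Bst2 (38.2 CPM per kb) had the highest mean levels in PBS mice, followed by Ifit3 (20.7 CPM per kb) and Ifi35 (16.3 CPM per kb). The lowest level was that of Oas3 at 0.264 CPM per kb, and Ifi27 was also the highest in WT mice at 16.9 CPM per kb. Oas2, with the highest fold change, stood at 3.51 CPM per kb.

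**Figure D2:**
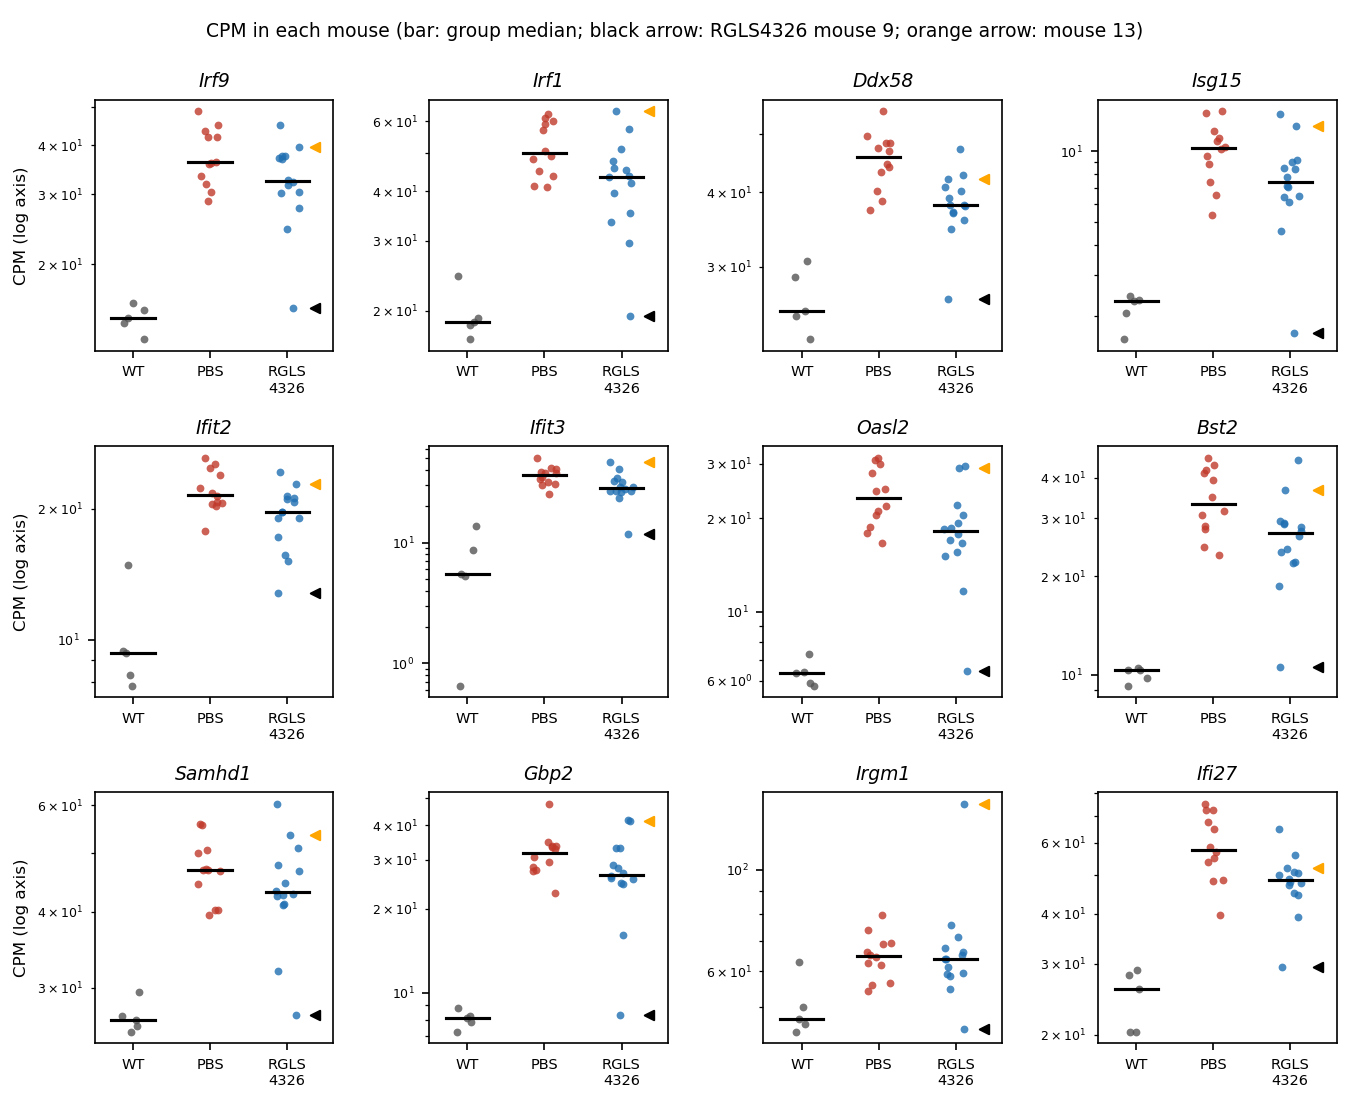
CPM of 12 members in each mouse on log axes (gray WT, red PBS, blue RGLS4326; bars are group medians, arrows mark RGLS4326 mouse 9 in black and mouse 13 in orange). The 12 genes are, for each role, the member with the smallest p between PBS and WT and that with the highest CPM; PBS mice were above all WT mice in each panel but Irgm1.

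The other genes of the pathway were read from lists. All 10 interferon ligands listed were below the filter: Ifng had at most 5 counts in a mouse and 59 counts over the 31 mice, Ifnb1 at most 1 count, and Ifna1, Ifna2, Ifna4 and Ifnl2 none in any mouse. Against 24.6% of all genes, 4 of the 6 receptor subunits were called higher in PBS than in WT mice, with log2 fold changes of 0.72 for Ifnar2 and 0.85 for Ifngr2 among them. Of 20 sensors, adaptors, kinases and transcription factors of the signalling path, 9 were called higher and none lower, against the same 24.6%. Tmem173, which encodes the DNA-sensing adaptor STING, had a log2 fold change of 2.29 (adjusted p = 1.11e-08), whereas the kinases Jak1 and Jak2 were at −0.29 and −0.34. Of 8 genes listed as feedback inhibitors, 4 were called higher, among them Trex1 (0.85) and Isg20 (1.10), an antiviral exonuclease that is not an inhibitor of the pathway. The other two were Socs3, an inhibitor of cytokine receptors, at 3.88 (adjusted p = 5.80e-08) and Socs1, the main inhibitor of interferon receptors, at 1.69 (adjusted p = 7.18e-06). Of 39 further interferon-stimulated genes tested, 30 were called higher, among them Ifi27l2a at 3.14 and Oas1g at 2.61, and Ifi203 was called lower at −0.76. Cmpk2, the genomic neighbour of Rsad2, had a log2 fold change of 0.00 (adjusted p = 0.969), so neither gene of this pair moved.

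Leukocyte markers rose beside the members. Against 24.6% of all genes called higher, all 6 pan-leukocyte markers, Ptprc and Coro1a among them, were called higher in PBS than in WT mice with a median log2 fold change of 1.84, and their summed level was 62.3 to 87.0 CPM in WT, 184 to 296 CPM in PBS and 76.9 to 373 CPM in RGLS4326 mice. Against the same 24.6%, of the macrophage markers 6 of 7 were called higher, of the T and NK cell markers 6 of 7, of the B cell markers 4 of 4 and of the plasmacytoid dendritic cell markers 3 of 4, while of the 3 neutrophil markers Csf3r was called higher (1.61, adjusted p = 6.79e-06), from a mean of 1.72 CPM in WT to 5.26 CPM in PBS mice, and S100a8 and S100a9 averaged at most 1.005 CPM in each group. Of the 8 tubule markers 6 were called lower, against 17.8% of all genes, and Aqp2, the water channel of the collecting duct, was called higher. Of the 5 endothelial markers Kdr (−1.05) and Tek (−0.73) were called lower, neither of the 2 podocyte markers was called, and the tubule injury markers Lcn2 (6.68) and Havcr1 (1.85) were called higher. The part of cell composition in the rise of the members was not tested.

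The second comparison asked whether the 34 members differ between Pcy mice given RGLS4326 and those given PBS, the same PBS mice as in the first. None was called, and 1.22% of all genes tested were called lower. By adjusted p alone 3 members were lower, against 6.66% of all genes: Ddx58 with a log2 fold change of −0.24 (SE 0.07, adjusted p = 0.0227), Usp18 with −0.41 (SE 0.14, adjusted p = 0.0483) and Ifi27 with −0.31 (SE 0.10, adjusted p = 0.0368). The PBS and RGLS4326 ranges of each overlapped, as the values of Ddx58 and Ifi27 above show, and those of Usp18 were 4.03 to 7.89 CPM and 1.94 to 8.10 CPM. The estimate was below 0 for 29 of the 34 members, against 51.1% of all genes, with a median log2 fold change of −0.22 for the members and 0.00 for all genes tested. An unadjusted p under 0.05 was found for 12 members, all of them lower, against 17.2% of all genes that were lower at this level. The members were measured in the same mice, so their common direction is not 34 separate observations.

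By role, the medians between RGLS4326 and PBS were lowest for the ISG15 system (−0.40) and the oligoadenylate synthetases (−0.37). The other antiviral effectors had −0.31, the Ifit family −0.29, the regulators −0.24, the remaining members −0.19 and the sensors −0.18. Without RGLS4326 mouse 9 the medians were −0.32 for the ISG15 system, −0.28 for the synthetases, −0.24 for the other antiviral effectors, −0.23 for the Ifit family, −0.18 for the regulators, −0.13 for the remaining members and −0.11 for the sensors. The Gbp and Irg GTPases stood at 0.03 with 4 of 6 above 0, from −0.22 for Gbp2 to 0.14 for Igtp, and none had an unadjusted p under 0.05. Without mouse 9 their median was 0.09, again with 4 of 6 above 0. These signs rested on RGLS4326 mouse 13: without it the median of the 6 was −0.15 and Gbp7 alone was above 0 (0.05), with Igtp at −0.13, Iigp1 at −0.17 and Irgm1 at −0.05. Irf7 had the lowest estimate of the 34, −0.45 (SE 0.17, adjusted p = 0.0590), with PBS mice at 19.0 to 47.0 CPM (median 31.9) and RGLS4326 mice at 7.52 to 41.9 CPM (median 22.7). Bst2 followed Usp18, Isg15 (−0.38), Oas1a (−0.38) and Oasl2 (−0.38) with −0.37 (adjusted p = 0.0598). The difference between the GTPases and the other roles was not tested. None of the receptors, signalling genes, listed feedback inhibitors or further interferon-stimulated genes was called in this comparison. By adjusted p alone, while 6.66% of all genes were lower, 1 of the 6 receptor subunits was, Ifnar1 (−0.15, adjusted p = 0.0487). Of the 39 further interferon-stimulated genes 2 were lower, Oasl1 (−0.47, adjusted p = 0.0421) and Ifitm2 (−0.20, adjusted p = 0.0375). Of the 20 signalling genes Jak1 (0.13, adjusted p = 0.0435) and Tbk1 (0.17, adjusted p = 0.0238) were higher. Without RGLS4326 mouse 9, Tbk1 was the only gene of these lists with an adjusted p under 0.05.

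**Figure D3:**
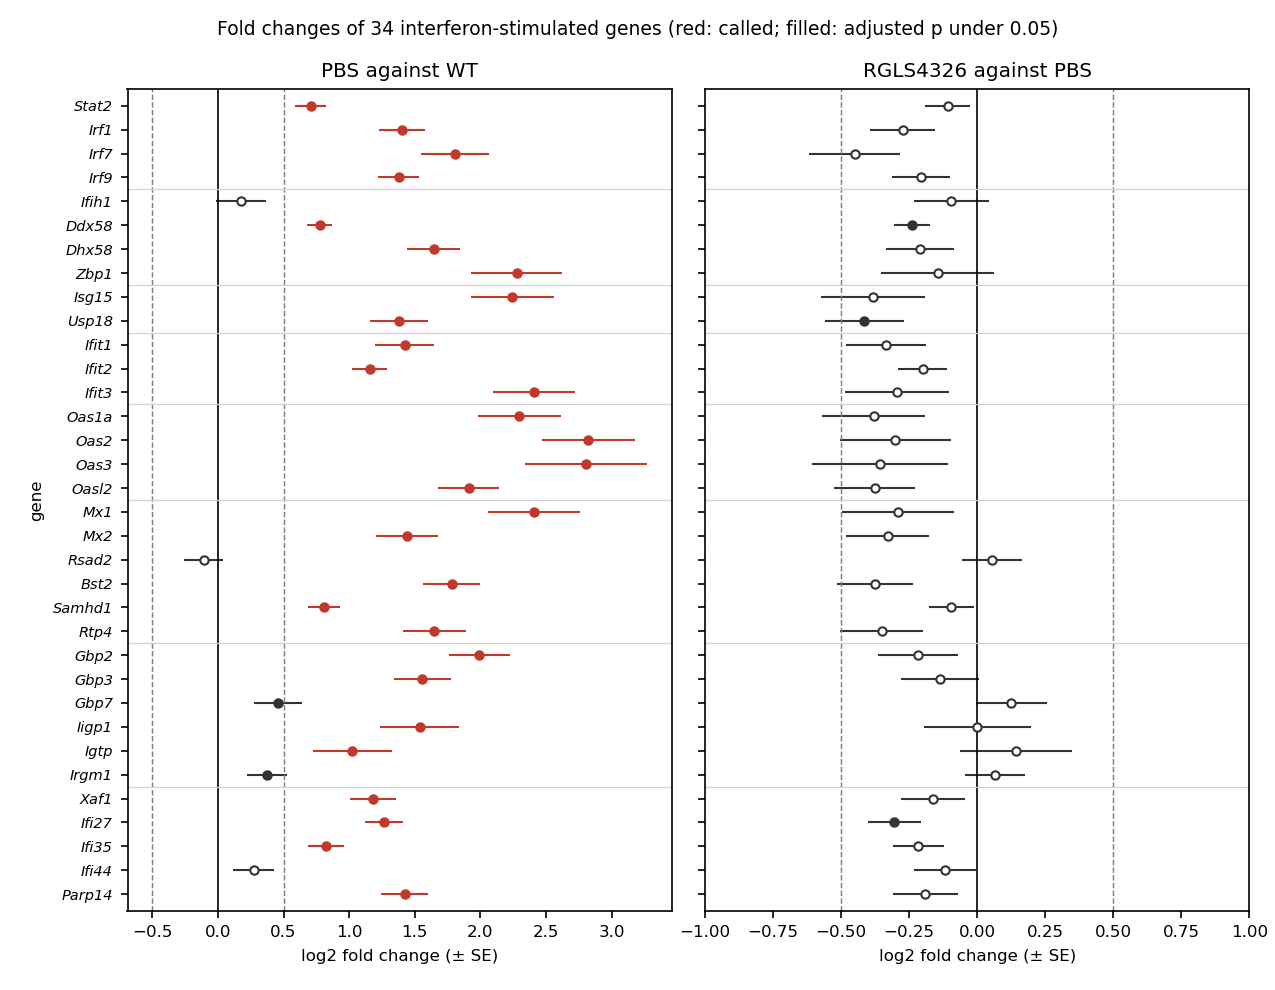
Log2 fold changes (points) with standard errors (bars) of the 34 genes for PBS against WT on the left and RGLS4326 against PBS on the right, on different horizontal scales; dashed lines mark ±0.5, red marks called genes and filled points an adjusted p under 0.05. On the left 29 genes are red and right of the line, and on the right 29 estimates lie below 0 and no gene is called.

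The lower estimates rested unevenly on the mice. Without RGLS4326 mouse 9 no member was called, the median was −0.17, 29 of 34 members were still below 0, and Ddx58 alone kept an adjusted p under 0.05 (−0.20, adjusted p = 0.0313). Without RGLS4326 mouse 2, which had the highest value of its group for 21 members, Irf7 (−0.54) and Usp18 (−0.51) were called lower, against 2.41% of all genes called lower, and without RGLS4326 mouse 13, Irf7 (−0.52) was, against 0.573% of all genes. Without mouse 9, Irf7 was at −0.38 (adjusted p = 0.0770) and Usp18 at −0.35 (adjusted p = 0.0689). Within the index series Irf7 had −0.13, −0.77 and −0.45. Within the index series the median was 0.00, −0.48 and −0.21, with 17, 33 and 27 of the 34 members below 0, and no member had an adjusted p under 0.05 in any series. In the second series without mouse 9 the median was −0.33 and no member was called. None of the 15129 to 15457 genes tested in these fits within a series was called either.

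The leukocyte markers had estimates on both sides of 0 between the Pcy groups. None of the 6 was called between RGLS4326 and PBS, and their median log2 fold change was −0.02, with group medians of their summed level of 242 CPM in PBS and 238 CPM in RGLS4326 mice. The macrophage markers had a median of −0.12 and the T and NK cell markers −0.25, with none called. All 4 plasmacytoid dendritic cell markers were below 0 with a median of −0.35, none was called, and Pacsin1 had an adjusted p of 0.0426. The 8 tubule markers had a median of 0.29 with 7 above 0, Calb1 had an adjusted p of 0.0475 at 0.43, and Aqp2 was called lower at −0.56 (adjusted p = 0.0265). Without RGLS4326 mouse 9 the medians were 0.05 for the leukocyte, −0.06 for the macrophage, −0.19 for the T and NK cell, −0.32 for the plasmacytoid dendritic cell and 0.23 for the tubule markers, and Aqp2 was the only one of these genes called, at −0.50 (adjusted p = 0.0395). The part of these cells in the estimates was not tested.

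The third comparison set treated Pcy mice against WT, which shares the WT mice with the first comparison and the RGLS4326 mice with the second. Of the 34 members 30 were called higher, against 20.3% of all genes, with a median log2 fold change of 1.17. These were the 29 called between PBS and WT and Gbp7, at 0.58 (SE 0.18, adjusted p = 0.00586). Side by side, the log2 fold changes of PBS and of RGLS4326 against WT were 2.82 and 2.52 for Oas2, 2.24 and 1.86 for Isg15, 1.38 and 1.17 for Irf9, and 1.02 and 1.16 for Igtp. Each RGLS4326 mouse was above each WT mouse for 3 members only, Dhx58, Bst2 and Ifi27, against 5.04% of all genes. When mouse 9 was left out this held for 28 members, against 16.2% of all genes. The count of members called higher was then again 30, against 21.3% of all genes, with a median of 1.23. Within the index series 28, 3 and 23 members were called higher, against 19.5%, 1.90% and 9.69% of all genes, the last with 1 WT mouse. In the second series without mouse 9, 31 members were called, against 14.6% of all genes, again beside the 2 closely alike WT mice.

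The mean log2(CPM + 1) of the 34 members ranged from 2.91 to 3.10 in WT, from 3.89 to 4.46 in PBS and from 2.97 to 4.62 in RGLS4326 mice. Without mouse 9 the lowest RGLS4326 mouse was mouse 6 at 3.62, still below every PBS mouse, and the highest, mouse 13, was above every PBS mouse. RGLS4326 mouse 9 was the lowest of its group for 32 members, and its leukocyte marker sum of 76.9 CPM lay within the WT range. Mouse 2, the highest for 21 members, had the highest leukocyte sum of all mice, 373 CPM. Mouse 13 was the highest for the other 13 members, among them Irf1, Stat2, Zbp1 and 5 of the 6 GTPases, with a leukocyte sum of 239 CPM, close to the median of its group. In mouse 13 Igtp reached 104 CPM, Iigp1 43.8 CPM and Irgm1 139 CPM, against 37.0, 23.6 and 67.4 CPM in mouse 2, and the mean log2(CPM + 1) of the 6 GTPases was 5.75, against a group median of 4.71. Its Isg15, at 12.7 CPM, was below that of mouse 2, at 14.4 CPM. In PBS mice the highest values were spread over more animals: mouse 5, which had the highest leukocyte, macrophage and T and NK cell marker sums of its group, was highest for 16 members, mouse 2 for 7 and mouse 10 for 5.

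**Figure D4:**
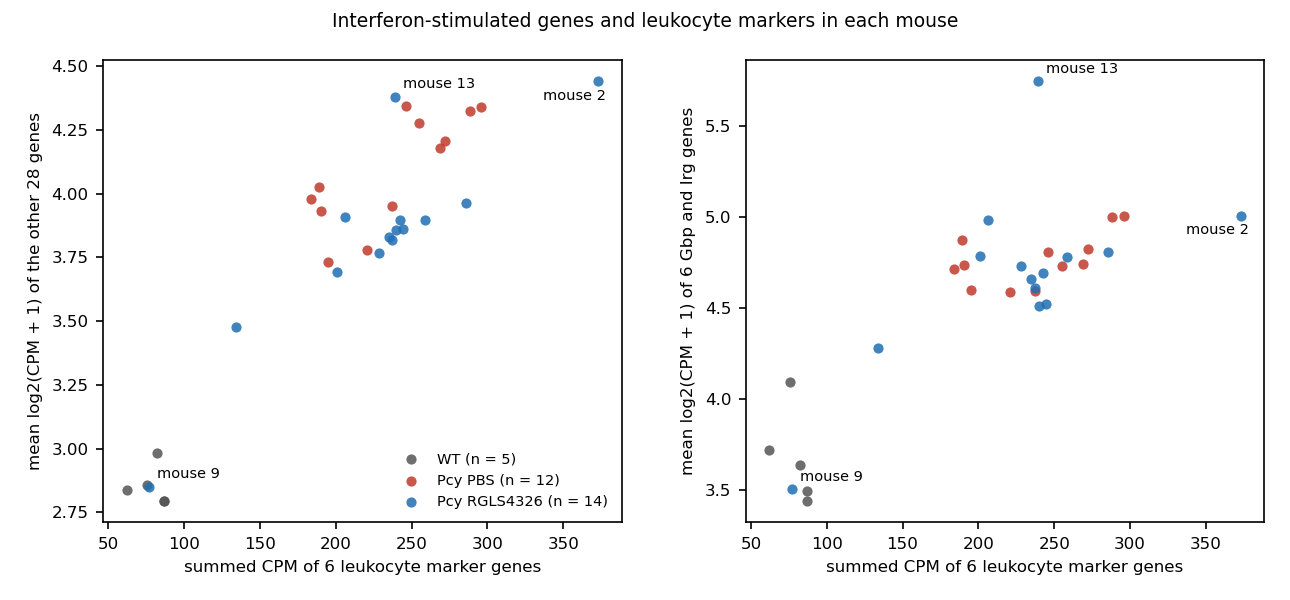
Mean log2(CPM + 1) per mouse of the 28 members outside the Gbp and Irg families (left) and of the 6 GTPases (right) against the summed CPM of 6 leukocyte markers. WT mice and RGLS4326 mouse 9 lie at 62.3 to 87.0 CPM of leukocyte markers, and mouse 13 stands above all others for the GTPases at 5.75.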

How the data were processed

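From stranded mRNA libraries of whole kidneys the authors trimmed paired reads with Trim Galore, aligned these by STAR to GRCm38 and counted uniquely mapped reads per gene with HTSeq 0.6.1, and they deposited raw counts, 1 table per mouse, without normalization. The annotation and the strand setting of HTSeq are not given in the sources used here. Reads outside genes (8.39 to 10.1% per mouse) and the other HTSeq summary lines were left out of library sizes.

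From the deposited counts, genes passing edgeR's filterByExpr were kept, TMM factors were computed, and all 31 mice entered a single quasi-likelihood fit (edgeR 4.0.16, R 4.3.3) with the 3 groups and no covariate, followed by Benjamini-Hochberg adjustment. A standard error is |log2 fold change| over the root of the F statistic. Means of log2 CPM used a pseudocount of 1. The procedure was tested on simulated counts, in which the planted changes were larger than any member's estimate between RGLS4326 and PBS. It was not tested for changes of that smaller size. The members and all gene lists were chosen with earlier results of these data known. All 34 members are named by role. Every group is given in full for the member of each role with the smallest p between PBS and WT and for that with the highest mean CPM. Values in mice of Rsad2, Ifih1, Ifi44, Irf7, Usp18, Igtp and Iigp1 are shown beyond this rule, chosen after their values were seen. Exon lengths and coordinates come from the GENCODE annotation of GRCm38, and promoters from RefSeq. Alternatives covered the filter, normalization, DESeq2 1.42.0, the mice in the model, index series, a replicate block, each mouse left out and, chosen after seeing the data, the second series without RGLS4326 mouse 9. Tables and figures were made in Python 3.11.15. Precision is lowest for genes with few counts. Each sample is 1 numbered mouse of its group. Some items of the lists are not reported here.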

Additional observations from a re-analysis of the deposited data

Results flagged for a closer look

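In the WT group of 5 mice, the values of 2 of the 34 members held a mouse far from the other 4 by Dixon's criterion, which flags about 1 in 20 groups by chance. Ifit2 in WT mouse 5 read 14.8 CPM, with a gap to the next mouse of 0.776 of the group's range, and remained below all PBS mice. Parp14 in WT mouse 1 read 21.5 CPM, with a gap of 0.912 of the range, in the same mouse that had the highest WT values of the 6 GTPases. The cause was not tested for either. The criterion was applied to the WT group only, and the groups of 12 and 14 mice were not checked.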

How the results depend on the processing

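The count of members called between PBS and WT was 29, and 27 to 31 under the alternatives run: 31 by adjusted p alone, 29 without a filter, with RLE size factors, with only the 2 groups compared, with the index series as covariate and with DESeq2, and 29 to 30 with a mouse left out. Between RGLS4326 and PBS, 0 members were called, and 0 under these alternatives except for adjusted p alone, with 3, and for mice left out, with 0 to 2. The adjusted p under 0.05 of Usp18 was lost in 22 of 31 fits that left out a mouse, that of Ifi27 in 11 and that of Ddx58 in 1, without PBS mouse 10. DESeq2 gave 5 members with an adjusted p under 0.05, the same 3 with Irf7 and Bst2, all lower. None of them was called, against 1.47% of all genes called lower with DESeq2. The share of all genes by adjusted p alone is not given for that fit. Between RGLS4326 and WT, 30 members were called, 29 to 31 with a mouse left out, and 3 in the second index series alone, or 31 there without RGLS4326 mouse 9. No called value changed sign.

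Replicate numbers are shared by the groups but mark different mice. The correlation of same-numbered PBS and RGLS4326 mice averaged −0.0554 over 12 pairs, from −0.416 to 0.435, so the numbers do not pair them. With a replicate block 30 members were called higher between PBS and WT, against 25.5% of all genes, and 30 between RGLS4326 and WT, against 21.5%. Between RGLS4326 and PBS 0 members were called, against 0.119% of all genes called lower, and no member had an adjusted p under 0.05. In that fit the median of the 6 Gbp and Irg GTPases was −0.20 between RGLS4326 and PBS, with Gbp7 alone above 0 (0.07). WT mice 3 and 4, the WT arm of the second index series, were the most alike. Their chi-square per gene of 2.69 was above sampling noise, which alone cannot show that they are separate animals. They were counted separately, as labelled. Depth limits mainly Oas3, with 2 to 8 counts per WT mouse, and the interferon ligands, where up to 5 counts per mouse leave no comparison.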
